A study of Mus musculus with 8 samples.

Results

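Sox9, Acan, Comp, Chad, Matn3, Hapln1, Prg4, Scx, Tnmd and Mkx are genes of the cartilage and tendon lineages. They were taken as a fixed list of 10 gene symbols out of the 49315 genes of the deposited count table, and each of the 10 was found in it. The study sorted mesenchymal stromal cells, the non-blood support cells of the bone marrow, from wild type mice of 6 weeks, labelled C57BL/6J (C57BL/6JJcl in the Methods), and asked whether its 7 populations differ in gene expression. RNA-seq libraries of clusters 1 to 7 and of the input bone marrow cells were compared, 1 library each. The study defined the 7 populations by single-cell RNA-seq of cells positive for Sca-1 and PDGFR-alpha. Its Methods also list antibodies to both antigens for enriching the cells to be sorted. All sorted cells were negative for the blood and endothelial antigens CD31, CD45 and Ter119. The gate of cluster 6, negative for Sca-1, departs from the fraction in which the populations were defined. As read from the sorting plots of the study, cluster 1 was gated as CD24- CD39+ Sca-1+, cluster 2 as Ly-6C- CD24- CD39-, cluster 3 as Ly-6C+ CD24+ and negative for CD39 and CD54, and cluster 4 as Ly-6C- CD24- CD54+. Cluster 5 was gated as CD54+ and negative for CD24, Ly-6C and CD121b, cluster 6 as CD24+ CD39- Sca-1-, and cluster 7 as CD54- Sca-1+ and negative for CD24 and Ly-6C. The input is labelled as stromal cells of the bone marrow as well, and no gate is stated for it. Whether animals were pooled for a library is not given in the sources used here.

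Where values are listed, clusters 1 to 7 are written C1 to C7. The total count on genes was 24205863 in C1, 25349917 in C2, 27102715 in C3, 32549319 in C4, 12833648 in C5, 31669132 in C6, 33238133 in C7 and 20162876 in the input. Levels are given as RPKM, the counts scaled by exon length and by the total count of the library. With 1 library per population there is no spread between replicates, so no test between populations was possible. The 95% intervals given here are exact binomial intervals of the 2 counts compared and cover counting error only. In cluster 5, 34.8% of the counts lay on 3 loci, Rn18s-rs5 (named for 18S ribosomal RNA), mmu-mir-689-2 and Lars2, against 10.4% in cluster 2 and 1.90% in cluster 1. Scaling by TMM, which matches most genes between libraries, moved all genes by 0.44 (log2) in C5, by 0.37 in C6, by -0.14 in C1 and by -0.68 in the input, and by less than 0.05 in the rest.

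In cartilage, the transcription factor Sox9 switches on the genes of a matrix built of type II collagen, of the proteoglycan aggrecan (Acan) and of the link protein (Hapln1) that ties aggrecan to hyaluronan, while matrilins, chondroadherin (Chad) and cartilage oligomeric matrix protein (Comp) connect these components. Tendon cells depend on the transcription factors scleraxis (Scx) and Mohawk (Mkx) and carry the membrane protein tenomodulin (Tnmd) as a late marker. Lubricin (Prg4) coats the joint surface and is made by superficial chondrocytes and by the lining cells of the synovium.

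The 10 genes were counted in every library and differed widely between the sorted libraries. Each had RPKM above 2 in at least 1 sorted library, with counts in the sorted libraries from 128 for Matn3 in cluster 3 to 287988 for Prg4 in the same cluster. Sox9, Acan, Comp and Matn3 were highest in C6, Hapln1 in C2, Chad in C4, Prg4 in C3, and Scx, Tnmd and Mkx in C1. With TMM scaling, Chad and Hapln1 were highest in cluster 6 and Tnmd in cluster 4. With totals without Rn18s-rs5, mmu-mir-689-2 and Lars2, Sox9 and Matn3 were highest in cluster 2. All 10 differed by more than 2-fold (of RPKM + 1) between the highest and the lowest sorted library, whereas 70.6% of the 12360 genes with RPKM above 2 did so. The median of this fold was 20.8 over the 10 genes and 2.39 over all 12360. The medians are not matched for level, since the highest library had a median RPKM of 409 for the 10 genes and 8.28 for all genes, and RPKM + 1 limits the fold of genes with low levels. The median fold of the highest over the next library was 1.17 over the 10 genes and 1.16 over all genes. The reads on the 10 genes made up 2.15% of the counts in C6 and 1.72% in C4, but 0.413% in C1 and 0.293% in C5. The share in C5 is lowered by the 34.8% of its counts on Rn18s-rs5, mmu-mir-689-2 and Lars2. With TMM scaling, the summed RPKM of the 10 genes was 1540 in C5 and 1196 in C1. In bulk libraries such as these, fewer cells of a type and less RNA per cell cannot be told apart.

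**Figure D1:**
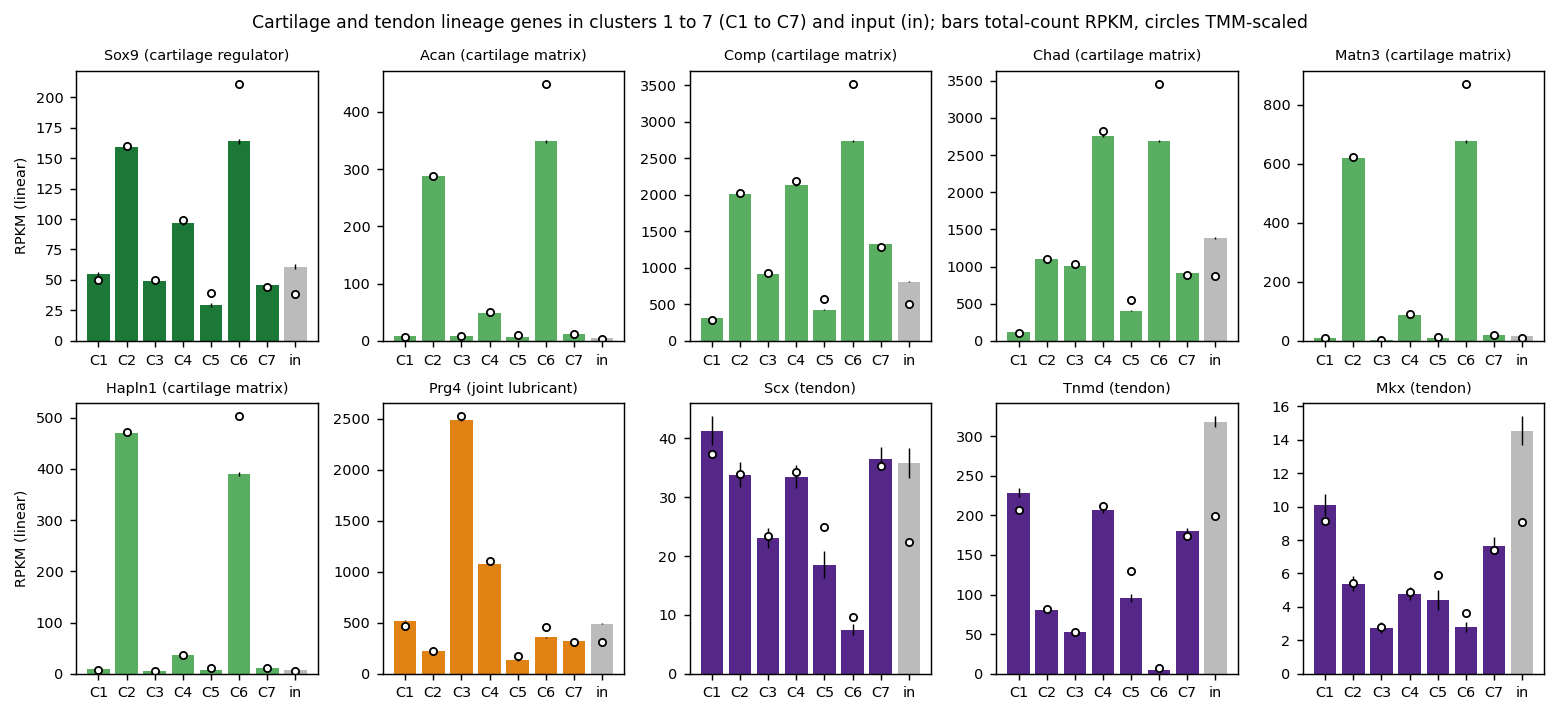
RPKM (vertical axes, linear, 1 scale per gene) of the 10 genes in clusters 1 to 7 and in the input, with 1 library per bar, 95% Poisson intervals of the count as lines and TMM-scaled RPKM as circles. Clusters 2 and 6 stand above the other sorted libraries for Sox9, Acan, Matn3 and Hapln1, cluster 3 for Prg4, and cluster 6 is lowest for Scx and Tnmd.

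Sox9, the regulator at the head of the cartilage programme, was present in every library. Its level was 54.8 RPKM in C1, 159 in C2, 49.3 in C3, 97.1 in C4, 29.4 in C5, 164 in C6, 45.8 in C7 and 61.1 in the input. Clusters 6 and 2 were high, cluster 4 was intermediate, and the other 4 sorted libraries were below the input, whereas with TMM scaling all 7 were above it. Cluster 6 exceeded cluster 2 by 1.03-fold (95% interval 1.01 to 1.05), an order that turned when Rn18s-rs5, mmu-mir-689-2 and Lars2 were left out of the totals. Clusters 1 and 3 changed places with TMM scaling, within counting error. The highest level was 5.57-fold (5.29 to 5.87) that of the lowest, in cluster 5, or 5.31-fold with TMM scaling. This range rests on cluster 5. When it was left out, the lowest was cluster 7, at 45.8 RPKM against 164 in cluster 6.

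Acan, the large aggregating proteoglycan of cartilage, had a much wider range than its regulator. It reached 8.54 RPKM in C1, 287 in C2, 9.34 in C3, 49.7 in C4, 7.19 in C5, 349 in C6, 12.8 in C7 and 4.36 in the input. Clusters 2 and 6 stood apart from all others, cluster 4 lay between, and every sorted library was above the input. Cluster 6 was 48.5-fold (45.0 to 52.4) above cluster 5, the lowest sorted library, and with TMM scaling 58.2-fold above cluster 1, which was then the lowest.

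Hapln1, the link protein, went with Acan. Its level was 8.39 RPKM in C1, 470 in C2, 5.66 in C3, 36.4 in C4, 8.11 in C5, 390 in C6, 12.2 in C7 and 7.62 in the input. Clusters 2 and 6 were again high and cluster 4 was the next, while clusters 1 and 5 did not differ beyond counting error (with TMM scaling, cluster 1 was at 0.693-fold of cluster 5, 0.624 to 0.771). Cluster 2 was 1.21-fold (1.19 to 1.22) above cluster 6, but 0.940-fold with TMM scaling, and 83.0-fold (77.3 to 89.2) above cluster 3.

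Matn3, a filament-forming matrix protein of growth plate cartilage, showed the largest range of the 10 genes. It measured 9.97 RPKM in C1, 619 in C2, 1.57 in C3, 89.0 in C4, 9.15 in C5, 677 in C6, 21.1 in C7 and 15.6 in the input. Clusters 2 and 6 were high, cluster 4 was intermediate, and cluster 3 was far below all others. The level in cluster 6 was 432-fold (363 to 518) that in cluster 3, where 128 reads were counted. Cluster 6 was 1.09-fold (1.08 to 1.11) above cluster 2, an order that turned when Rn18s-rs5, mmu-mir-689-2 and Lars2 were left out of the totals (-0.008 on the log2 scale). Clusters 1 and 5 did not differ beyond counting error, but with TMM scaling cluster 1 was at 0.729-fold of cluster 5 (0.641 to 0.830).

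Clusters 2 and 6 were the 2 highest sorted libraries for 4 of the 10 genes, namely Sox9, Acan, Matn3 and Hapln1, and for 6.40% of all genes tested (11.3% with TMM scaling). For Acan, Matn3 and Hapln1 both libraries were more than 2-fold above each of the other 5, as for 0.906% of all genes (1.20% with TMM scaling). This rule was set after the values were seen, so the counts describe the pattern and do not test it. The lower of the 2 libraries was 5.69-fold above the highest of the other 5 for Acan, 6.89-fold for Matn3 and 10.5-fold for Hapln1, but 1.64-fold for Sox9 (RPKM + 1). Cluster 6 was the highest sorted library for 4 of the 10 genes and for 7.10% of all genes, or for 6 of the 10 and 20.9% with TMM scaling.

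A ratio of 2 genes within a library does not depend on how libraries are scaled. Acan over Sox9 was 0.156 in C1, 1.80 in C2, 0.189 in C3, 0.512 in C4, 0.245 in C5, 2.13 in C6, 0.280 in C7 and 0.0714 in the input. Matn3 over Sox9 spanned 130-fold over the sorted libraries, from 0.0318 in cluster 3 to 4.13 in cluster 6. Hapln1 over Sox9 was 2.95 in cluster 2 and 2.38 in cluster 6, against 0.375 in cluster 4 and at most 0.276 in the other sorted libraries. For Acan, Matn3 and Hapln1 the ratio to Sox9 was thus highest in clusters 2 and 6, and cluster 4 came next. Comp and Chad did not follow this order, since Comp over Sox9 was highest in cluster 7 (28.9, against 12.6 in cluster 2 and 16.7 in cluster 6) and Chad over Sox9 in cluster 4 (28.5, against 6.88 and 16.4). Acan over Hapln1, whose products bind each other, varied by 2.70-fold among the sorted libraries.

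Comp and Chad, matrix proteins that are also found outside hyaline cartilage, were spread over more libraries. Comp, a thrombospondin family protein of cartilage and tendon, measured 320 RPKM in C1, 2015 in C2, 919 in C3, 2132 in C4, 428 in C5, 2734 in C6, 1326 in C7 and 808 in the input. Chad, a leucine-rich repeat protein that binds collagen and cells, measured 120 RPKM in C1, 1097 in C2, 1014 in C3, 2762 in C4, 408 in C5, 2687 in C6, 913 in C7 and 1387 in the input. For both genes cluster 4 was near cluster 6 and clusters 1 and 5 were the lowest. Comp in C6 was 1.28-fold (1.27 to 1.29) the level in C4 and 8.53-fold that in C1. Chad in C4 was 1.03-fold (1.02 to 1.04) the level in C6, an order that turned with TMM scaling, and 23.0-fold that in C1. Chad lies within Acsf2 on the opposite strand with no shared exon bases, and Acsf2 had 36 to 463 counts per library.

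The genes of the cartilage matrix around these genes followed the same libraries. Of 17 cartilage partner genes, all 17 differed by more than 2-fold between sorted libraries (70.6% of all genes) and 11 were more than 2-fold higher in both clusters 2 and 6 than in each of the other 5 (0.906% of all genes). The highest library was cluster 2 for 9, cluster 6 for 6 and cluster 4 for 2 of them, against 6, 9 and 2 with TMM scaling. Of all genes, 22.8% were highest in cluster 2, 7.10% in cluster 6 and 8.95% in cluster 4 (19.9%, 20.9% and 10.4% with TMM scaling). Col2a1, the main collagen of cartilage, was the most abundant, with 10541 RPKM in C6, 8611 in C2 and 3046 in C4, and 134 to 192 in the other sorted libraries. Col9a1, a collagen that decorates the type II fibril, reached 634 in C6 and 630 in C2 but 2.67 in C3. Cnmd (chondromodulin), the close relative of tenomodulin in cartilage, had 1164 RPKM in C6, 920 in C2 and 289 in C4. Cytl1 and Matn4 were highest in C4, where Cytl1 reached 1978 RPKM against 871 in C6 and 321 in C2. The summed RPKM of the 17 genes was 367 in C1, 16917 in C2, 683 in C3, 6351 in C4, 447 in C5, 17572 in C6, 467 in C7 and 301 in the input.

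Genes of hypertrophic cartilage, the last stage of the growth plate, were highest in clusters 2 and 6 as well, which were the first library for 5 and 2 of the 8 (4 and 3 with TMM scaling), against 22.8% and 7.10% of all genes (19.9% and 20.9% with TMM scaling). All 8 differed by more than 2-fold, as did 70.6% of all genes. Col10a1, Ihh, Pth1r and Panx3, 4 of the 8, were more than 2-fold higher in both clusters 2 and 6 than in each of the other 5, against 0.906% of all genes. Col10a1, the collagen that defines hypertrophic chondrocytes, measured 601 RPKM in C2 and 373 in C6, 39.0 in C4 and 4.33 to 14.5 in the others. Ihh, the growth plate signal made by prehypertrophic chondrocytes, measured 17.0 in cluster 2 and 12.2 in cluster 6, and at most 0.504 in the other sorted libraries. Mmp13, a collagenase of hypertrophic chondrocytes and osteoblasts, had another order, with 800 RPKM in cluster 7 and 112 in cluster 2.

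**Figure D2:**
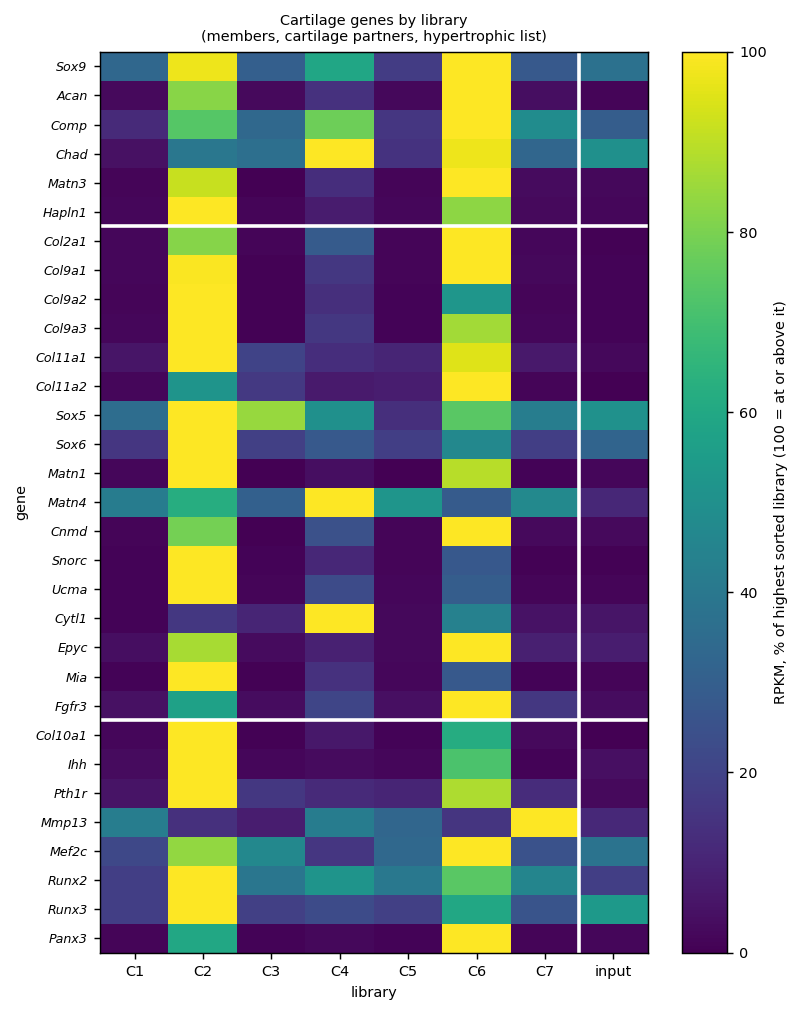
RPKM as a percentage of the highest sorted library (colour, 100 at or above it) for 6 of the 10 genes, for the 17 cartilage partner genes and for the 8 hypertrophic genes (rows, separated by white lines) in the 8 libraries (columns). Most rows are bright in clusters 2 and 6 and weaker in cluster 4, while Chad, Matn4 and Cytl1 peak in cluster 4 and Mmp13 in cluster 7.

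The sequences before the starts of 3 genes that were high together, Acan, Matn3 and Hapln1, are shown with that of Tnmd, which was lowest in cluster 6. They are the 250 bases upstream of the RefSeq start in the build GRCm38.p6, all on the plus strand and written 5′ to 3′, at chr7:79052976-79053225 for Acan, chr12:8947679-8947928 for Matn3, chr13:89540386-89540635 for Hapln1 and chrX:133850758-133851007 for Tnmd. Capitals mark matches, on either strand, to ACAAAG and AACAAT (letters bound by Sox factors), CATCTG (an E-box, bound by factors such as Scx), TATAAA (the TATA box) and GGGCGG (the GC box).
Acan: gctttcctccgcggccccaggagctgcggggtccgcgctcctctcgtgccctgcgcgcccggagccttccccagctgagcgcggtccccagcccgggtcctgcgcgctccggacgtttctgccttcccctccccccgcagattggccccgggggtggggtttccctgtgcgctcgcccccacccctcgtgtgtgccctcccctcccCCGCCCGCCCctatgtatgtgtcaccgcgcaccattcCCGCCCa
Matn3: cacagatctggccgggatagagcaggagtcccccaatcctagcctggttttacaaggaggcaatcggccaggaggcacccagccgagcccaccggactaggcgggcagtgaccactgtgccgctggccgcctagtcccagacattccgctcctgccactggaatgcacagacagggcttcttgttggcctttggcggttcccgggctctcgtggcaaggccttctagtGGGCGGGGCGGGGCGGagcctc
Hapln1: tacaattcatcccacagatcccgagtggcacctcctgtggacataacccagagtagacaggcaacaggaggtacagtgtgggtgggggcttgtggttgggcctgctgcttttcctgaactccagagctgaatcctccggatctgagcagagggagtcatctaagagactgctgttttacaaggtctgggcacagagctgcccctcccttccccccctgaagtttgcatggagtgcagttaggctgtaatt
Tnmd: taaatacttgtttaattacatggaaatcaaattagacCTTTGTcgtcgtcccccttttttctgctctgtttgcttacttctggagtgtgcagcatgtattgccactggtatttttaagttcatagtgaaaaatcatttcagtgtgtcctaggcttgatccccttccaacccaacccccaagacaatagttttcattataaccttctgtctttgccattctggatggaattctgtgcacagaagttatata
The windows of Acan and Matn3 each held 3 matches of GGGCGG, on the minus strand for Acan and on the plus strand for Matn3, of which 2 in Acan and all 3 in Matn3 overlap each other. GGGCGG occurs in 32.7% of the 32851 upstream windows of the same length. The window of Tnmd held ACAAAG on the minus strand, 213 bases before the start, and this motif occurs in 16.5% of all windows. No match was found in that of Hapln1. AACAAT and CATCTG, found in 9.42% and 14.4% of all windows, matched in none of the 4. Chad, also in the table, held GGGCGG and, 28 bases before its start, TATAAA, which occurs in 12.4% of all windows. The GC content was 74.4% for Acan, 65.2% for Matn3, 54.4% for Hapln1 and 38.4% for Tnmd, against a median of 52.4% (quartiles 45.2% and 61.2%) over all windows. A match describes these letters and is not a known site.

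Prg4, which encodes the joint lubricant lubricin, had a pattern of its own among the 10 genes. It measured 519 RPKM in C1, 226 in C2, 2483 in C3, 1080 in C4, 131 in C5, 356.5 in C6, 320 in C7 and 490 in the input. Cluster 3, where Matn3 and Hapln1 were lowest, was the highest, and cluster 4 was second. The level in C3 was 2.30-fold (2.28 to 2.31) that in C4 and 19.0-fold (18.6 to 19.5) that in C5. With TMM scaling it was 14.3-fold that in C5. When cluster 5 was left out, the lowest was cluster 2, at 226 RPKM. Prg4 was the 1 gene of the 10 that was more than 2-fold above each of the other 6 sorted libraries, as were 5.40% of all genes in some cluster and 0.574% in cluster 3. Prg4 over Acan within a library ran from 0.787 in C2 and 1.02 in C6 to 266 in C3. The gene shares 204 exon bases with Tpr on the opposite strand, and without the strand of the reads known the 2 cannot be separated there. Tpr had 1029 to 3708 counts per library, against 7173 to 287988 for Prg4.

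Of 10 further genes of the joint surface and the synovial lining, 9 had RPKM above 2, and all 9 differed by more than 2-fold between sorted libraries, as did 70.6% of all genes. Cluster 3 was the highest for 5 of them and for 9.85% of all genes (10.1% with TMM scaling), namely for Tspan15, Cd55, Has1, Htra4 and Creb5. Htra4, a serine protease, measured 467 RPKM in cluster 3 and 76.6 in cluster 1, the next. Cd55, a complement regulator of synovial lining fibroblasts, measured 112 in cluster 3, 29.3 in cluster 1 and 2.75 to 16.8 in the other sorted libraries. Has1, a synthase of the hyaluronan in synovial fluid, measured 1621 in C3, 897 in C4 and 870 in C1. None of the list was more than 2-fold higher in both clusters 2 and 6 than in each of the other 5, a rule met by 0.906% of all genes. Clu and Cilp2 were highest in C4 (Clu in C6 with TMM scaling), Cilp in C6 and Has2 in C1, while Erg did not reach the RPKM limit. The summed RPKM of the list was 1413 in C1, 492 in C2, 3472 in C3, 2219 in C4, 493 in C5, 1446 in C6, 1639 in C7 and 1717 in the input.

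The tendon genes were highest in cluster 1 (Tnmd in cluster 4 with TMM scaling) and low in cluster 6. Scx, the first transcription factor of tendon progenitors, measured 41.3 RPKM in C1, 33.8 in C2, 23.1 in C3, 33.5 in C4, 18.5 in C5, 7.45 in C6, 36.5 in C7 and 35.8 in the input. Clusters 1, 7, 2 and 4 were close to each other, and cluster 6 stood below all of them. Cluster 1 was 1.13-fold (1.05 to 1.22) above cluster 7, or 1.06-fold (0.979 to 1.15) and within counting error with TMM scaling, and 5.54-fold (4.85 to 6.35) above cluster 6, while clusters 7 and 2, and clusters 2 and 4, did not differ beyond counting error with or without TMM scaling. Clusters 3 and 5 changed places with TMM scaling, within counting error. Scx lies within Bop1 on the opposite strand with no shared exon bases. Bop1 had 239 to 1878 counts per library and Scx 268 to 1378.

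Tnmd, the membrane protein of mature tendon cells, had the widest range of the 3 tendon genes. It measured 229 RPKM in C1, 80.8 in C2, 52.5 in C3, 207 in C4, 95.5 in C5, 5.34 in C6, 180 in C7 and 318 in the input. Clusters 1, 4 and 7 were high, clusters 5, 2 and 3 intermediate, and cluster 6 was far below the rest. Cluster 1 was 1.10-fold (1.07 to 1.14) above cluster 4, an order that turned with TMM scaling (0.975-fold, 0.946 to 1.01), and 42.8-fold (37.5 to 49.1) above cluster 6. Tnmd over Matn3 within a library was 23.0 in C1, 0.131 in C2, 33.5 in C3, 2.33 in C4, 10.4 in C5, 0.00790 in C6, 8.53 in C7 and 20.4 in the input. This ratio spanned 4241-fold over the sorted libraries, with clusters 6 and 2 at its lower end.

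**Figure D3:**
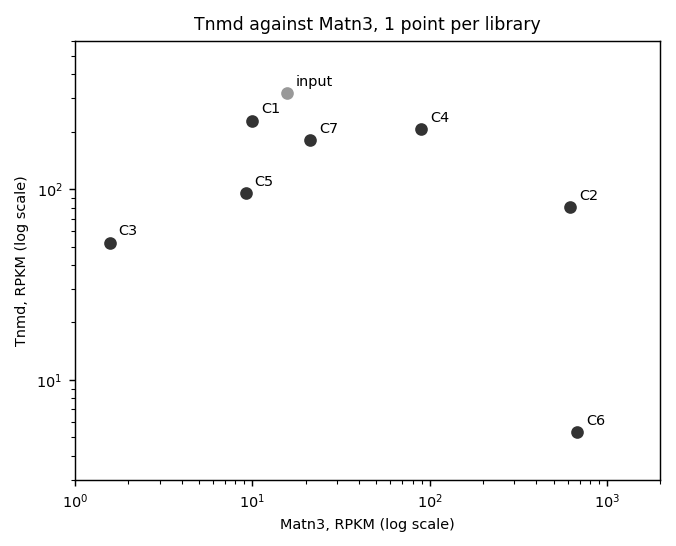
Tnmd (vertical axis) against Matn3 (horizontal axis), both in RPKM on log scales, with 1 point per library, clusters in black and the input in grey. Cluster 6 lies alone at high Matn3 and low Tnmd (677 and 5.34 RPKM), and cluster 4 has both genes (89.0 and 207 RPKM).

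Mkx, a homeobox factor of tendon fibril formation, had the lowest maximum over the sorted libraries of the 10 genes. It measured 10.1 RPKM in C1, 5.40 in C2, 2.74 in C3, 4.78 in C4, 4.39 in C5, 2.81 in C6, 7.67 in C7 and 14.5 in the input. Clusters 1 and 7 were the highest sorted libraries and clusters 6 and 3 the lowest, the latter without a difference beyond counting error. The same held for clusters 4 and 5. With TMM scaling both pairs differed, cluster 6 being at 1.30-fold of cluster 3 (1.11 to 1.53) and cluster 4 at 0.827-fold of cluster 5 (0.708 to 0.969). Cluster 1 was 1.32-fold (1.20 to 1.44) above cluster 7 and 3.69-fold (3.23 to 4.22) above cluster 3.

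Cluster 1 was the highest sorted library for Scx, Tnmd and Mkx, 3 of the 10 genes, and for 21.3% of all genes tested. With TMM scaling it was so for Scx and Mkx and for 9.98% of all genes. Cluster 6 was the lowest for 2 of the 10, Scx and Tnmd, and for 25.5% of all genes (17.0% with TMM scaling).

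All 16 tendon and ligament partner genes differed by more than 2-fold between the sorted libraries, as did 70.6% of all genes (56.8% with TMM scaling). Cluster 7 was the highest for 6 of them and for 25.3% of all genes (17.1% with TMM scaling), cluster 1 for 3, and cluster 6 was the lowest for 8 (7 with TMM scaling), against the 21.3% and 25.5% of all genes for clusters 1 and 6. Mfap5, a microfibril protein, measured 266 RPKM in cluster 1 and 0.317 in cluster 6, from 36 counts. Kera (keratocan), a small proteoglycan of collagen fibrils, measured 278 in C1, 126 in C7 and 2.74 in C6. Col14a1, a collagen on the surface of tendon fibrils, measured 75.7 in cluster 1 and 1.11 in cluster 6. Thbs4, a thrombospondin of tendon and muscle, was highest in cluster 7 with 514.5 RPKM and lowest in cluster 6 with 44.3. Other genes of the list were high in cluster 6. Fmod (fibromodulin), shared by tendon and cartilage, was highest there with 1453 RPKM, as was Lox, an enzyme that crosslinks collagen, with 175 RPKM. Fibin measured 99.4 in cluster 2 and 99.1 in cluster 6, and Wif1, a Wnt inhibitor, 374 in cluster 4 and 278 in cluster 6. The summed RPKM of the 16 genes was 3712 in C1, 1743 in C2, 2820 in C3, 3557 in C4, 1227 in C5, 2596 in C6, 4130 in C7 and 3923 in the input.

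**Figure D4:**
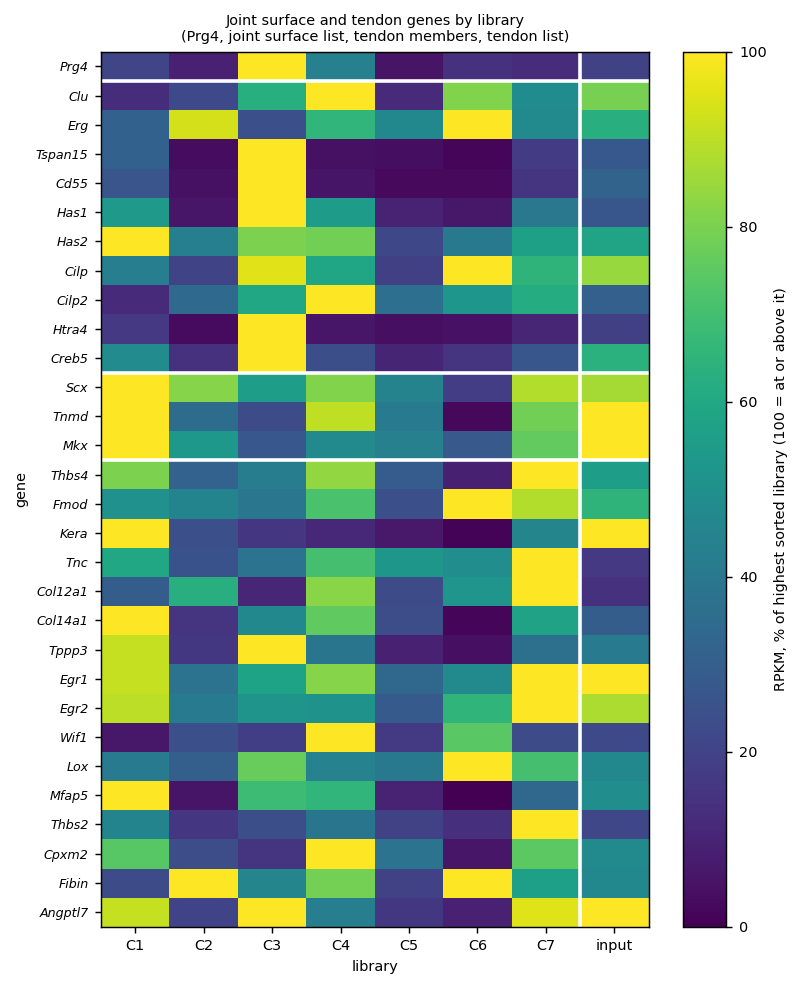
RPKM as a percentage of the highest sorted library (colour, 100 at or above it) for Prg4, the 10 joint surface genes, Scx, Tnmd and Mkx, and the 16 tendon partner genes (rows, separated by white lines) in the 8 libraries (columns). Prg4, Tspan15, Cd55, Has1, Htra4 and Creb5 are brightest in cluster 3, and Tnmd, Kera, Col14a1 and Mfap5 are dark in cluster 6.

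Genes of all 3 groups were counted in every sorted library, and cluster 4 had high ranks for most of them. It ranked 2 or 3 among the sorted libraries for Sox9, Acan, Comp, Matn3, Hapln1, Prg4 and Tnmd and 1 for Chad, with places 1 and 2 exchanged for Tnmd and Chad under TMM scaling, and 4 for Scx and Mkx (3 and 5 under TMM scaling). Of all genes, 8.95% were highest in cluster 4 (10.4% with TMM scaling). The share of all genes with cluster 4 at rank 2 or 3 was not computed, so these ranks are a description. In cluster 4, Tnmd at 207 RPKM and Prg4 at 1080 stood beside Matn3 at 89.0 and Col2a1 at 3046. In cluster 2, Tnmd at 80.8, Scx at 33.8 and Prg4 at 226 RPKM stood beside Matn3 at 619 and Col2a1 at 8611. Whether single cells of these libraries carry these genes together, or different cells do, cannot be told apart in a bulk library.

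The genes whose profile was most like that of each of the 10 were sought among 11407 genes by Pearson's r of log2(RPKM + 1) over the 7 sorted libraries. Since 7 points that share their depth and composition give high values for many genes, r is a description. The nearest gene was Col9a1 for Matn3 (r = 0.994) and Col10a1 for Hapln1 (r = 0.995), both collagens of cartilage. For Tnmd it was Igf1 (r = 0.994), a growth factor, which measured 37.1 RPKM in C1, 38.3 in C4 and 0.762 in C6. For Acan the nearest were Slc38a3 and Kcna6, for Sox9 Ppp1r1b and Cyp51, for Comp Fibin and Cnksr3, and for Chad Tmem176a and Epha2. Uap1, an enzyme that makes the sugar nucleotide used for hyaluronan, was the second for Prg4 (r = 0.966) with 395 RPKM in cluster 3 and 66.5 in cluster 5. Eif2b2, the first for Prg4, ranged from 11.2 to 21.3 RPKM, so a high r was reached there with a small range. The nearest genes were Psmd9 and Znhit3 for Scx, and Sin3a and Srrt for Mkx, all widely expressed genes. Ranges were small there too, for example 2.305 to 5.175 RPKM for Psmd9 and 2.727 to 4.442 for Sin3a. The same held for Cnksr3, named above for Comp (3.716 to 6.213 RPKM). Hs3st3b1 and Aldoc were the second for Matn3 and Hapln1, and Ptx4 for Tnmd. Among the 10 genes themselves, r was 0.990 for Acan and Hapln1, 0.960 for Sox9 and Acan, 0.933 for Comp and Chad, 0.934 for Scx and Tnmd, and -0.571 for Hapln1 and Tnmd.

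Against the input, the 10 genes fell into several classes. Tnmd and Mkx were higher in the input than in every sorted library, as were 37.9% of all genes tested, whereas with TMM scaling 2 sorted libraries exceeded the input for Tnmd and 1 for Mkx. The input was more than 2-fold above the median sorted library for these 2 genes and for 15.6% of all genes, a count that went to 0 of the 10 with TMM scaling. Acan was the gene whose median sorted library was more than 2-fold above the input, as for 4.47% of all genes, and with TMM scaling 3 of the 10 were. The comparison with the input thus depended on the scaling, which lowered the input by 0.68 on the log2 scale, and on the libraries taken, since without cluster 5 the count of 1 went to 4. For these input comparisons, the shares of all genes were not computed with TMM scaling or without cluster 5. The changed counts therefore do not set the 10 genes apart from other genes. Acan was above the input in all 7 sorted libraries with and without TMM scaling.

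Markers of other cell types differed between the same libraries. Bone formation genes were highest in clusters 6 and 3. The 12 osteoblast and osteocyte genes had a summed RPKM of 4860 in C1, 11105 in C2, 32946 in C3, 4437 in C4, 14643 in C5, 41628 in C6, 5405 in C7 and 1670 in the input. Of the 10 with RPKM above 2, 8 were highest in cluster 6, against 7.10% of all genes (20.9% with TMM scaling), and Bglap and Bglap2 in cluster 3, against 9.85%. The most abundant was Col1a1, and Sost, a marker of osteocytes, had 0 counts in clusters 1, 4 and 7 and at most 15 elsewhere. Dmp1, made by osteocytes and late osteoblasts, measured 415 RPKM in C6, 203 in C3 and 35.8 in C2. The part of these cells in the cartilage values was not tested.

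Skeletal muscle genes were highest in C2, with a summed RPKM of 22.0 in C1, 170 in C2, 76.6 in C3, 11.2 in C4, 47.7 in C5, 82.9 in C6, 11.4 in C7 and 30.1 in the input. Of the 7 of 10 with RPKM above 2, 6 were highest in cluster 2, against 22.8% of all genes (19.9% with TMM scaling), and none of the list was at 0. Acta1, the skeletal actin and the most abundant, measured 69.6 RPKM in cluster 2, against 80.8 for Tnmd there. Whether muscle or its tendon insertions contributed to Tnmd or Scx was not tested.

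The stromal, blood and other markers bear on what the sorted libraries hold. The marrow stromal genes summed to 739 RPKM in C1, 144 in C2, 1019 in C3, 731 in C4, 200 in C5, 55.2 in C6, 434 in C7 and 551 in the input. Of the 9 of 10 with RPKM above 2, 6 were lowest in C6 (5 with TMM scaling), against 25.5% of all genes (17.0%), and the most abundant, Ly6a (the gene of the sort antigen Sca-1), measured 4.98 in C6, which was gated as negative for it, and 590 in C1 and 226 in C7, which were gated as positive. It was higher in clusters 3 (931) and 4 (431), whose gates do not name Sca-1, than in cluster 7. Without Ly6a the marrow stromal sum was 149 RPKM in C1, 65.85 in C2, 87.6 in C3, 300 in C4, 113 in C5, 50.2 in C6 and 208 in C7. Cluster 4 was then the highest and cluster 6 still the lowest. Pdgfra was measured in all sorted libraries at 4.37 to 28.1 RPKM and Lepr at 2.58 to 12.4. The 8 haematopoietic genes summed to 5343 RPKM in C1, 6383 in C2, 3904 in C3, 6378 in C4, 9324 in C5, 6013 in C6, 11860 in C7 and 18044 in the input. Of the 8, 7 were highest in cluster 7 (6 with TMM scaling, Elane then in cluster 6), against 25.3% of all genes (17.1% with TMM scaling), and none was at 0. S100a8, a neutrophil gene, was the most abundant. Without it the haematopoietic sum was 1031 RPKM in C1, 1208 in C2, 771 in C3, 2213 in C4, 1446 in C5, 2192 in C6, 4710 in C7 and 7247 in the input. Ptprc, the gene of the sort antigen CD45, stood at 1.69 to 9.26 RPKM in the sorted libraries and at 13.5 in the input. The 6 erythroid genes, with Hba-a1 as the most abundant, summed to 14562 RPKM in C1, 13322 in C2, 7328 in C3, 2260 in C4, 68504 in C5, 1591 in C6, 7411 in C7 and 689 in the input. All 6 were highest in cluster 5, as were 4.73% of all genes (11.6% with TMM scaling). Haemoglobin took 5.21% of the counts of cluster 5. The part of blood cells in the values of the 10 genes was not tested.

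Markers of vessels and nerve were the last lists. The 6 endothelial genes summed to at most 14.5 RPKM in a sorted library (18.5 with TMM scaling). The 4 with RPKM above 2 were lowest in cluster 6, or 2 of them, Pecam1 and Cdh5, in cluster 4 with TMM scaling, while 25.5% of all genes were lowest in cluster 6 (17.0% with TMM scaling). The 6 pericyte and smooth muscle genes summed to 98.0 RPKM in C1, 41.8 in C2, 32.8 in C3, 55.6 in C4, 25.9 in C5, 10.1 in C6, 102 in C7 and 31.6 in the input. Acta2, the smooth muscle actin and the most abundant, measured 84.7 in cluster 7, 61.8 in cluster 1 and 4.68 in cluster 6. The sum was high in clusters 1 and 7 and low in cluster 6, as were Scx, Tnmd and Mkx. Without Acta2 it was 36.3 in cluster 1, 17.5 in cluster 7 and 22.5 in cluster 3, so the high value in cluster 7 rested on that gene. The part of these cells in the tendon gene values was not tested. Of 5 Schwann cell genes, S100b, which cartilage cells also express, measured 114 RPKM in C2, 38.8 in C4 and 33.5 in C6, while the other 4 together stayed at or below 4.15 RPKM in the sorted libraries. Sox10, the factor that defines Schwann cells, had 84 counts in cluster 2 and 104 in cluster 6. It had 0 in cluster 7 and at most 6 in the other sorted libraries.

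**Figure D5:**
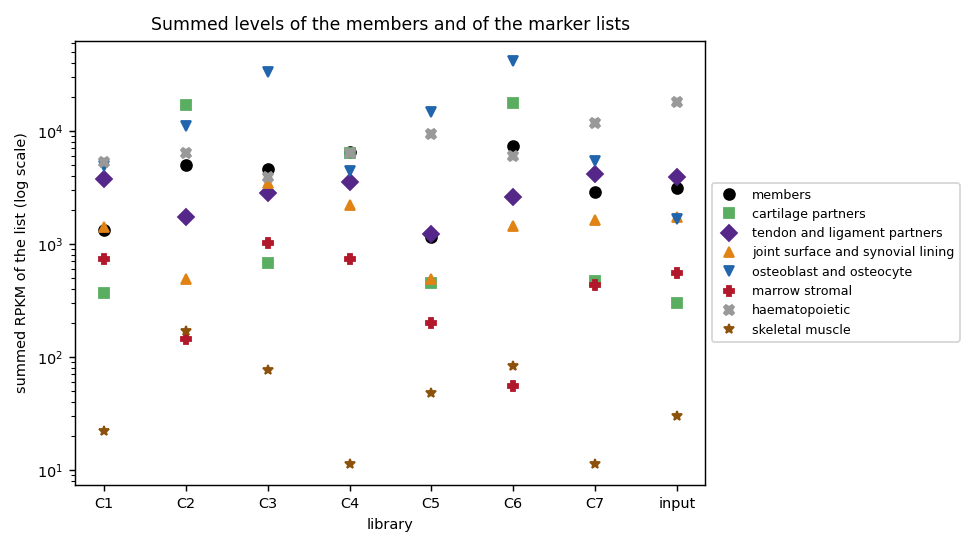
Summed RPKM (vertical axis, log scale) of the 10 genes (members, black) and of 7 of the gene lists in clusters 1 to 7 and in the input, with 1 library per column. Among the lists not drawn is the erythroid list, which had the highest sum (68504 RPKM in cluster 5). Cartilage partner genes reach 16917 and 17572 in clusters 2 and 6, osteoblast genes are highest in clusters 6 and 3, and marrow stromal genes are lowest in cluster 6.

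The positions of the genes in the deposited table are those of GRCm38. Sox9 (ENSMUSG00000000567) lies at chr11:112782224-112787760, Acan (ENSMUSG00000030607) at chr7:79053483-79115099, Comp (ENSMUSG00000031849) at chr8:70373558-70382066, Chad (ENSMUSG00000039084) at chr11:94565047-94569127 and Matn3 (ENSMUSG00000020583) at chr12:8947929-8972028. Hapln1 (ENSMUSG00000021613) lies at chr13:89540636-89611832, Scx (ENSMUSG00000034161) at chr15:76457438-76459468 and Tnmd (ENSMUSG00000031250) at chrX:133850980-133865577, and these 8 genes are on the plus strand. Prg4 (ENSMUSG00000006014) lies at chr1:150449412-150466165 and Mkx (ENSMUSG00000061013) at chr18:6910459-7004780, both on the minus strand. The counts cover the exons of each gene, from 1136 bases for Scx to 7469 bases for Acan. The start of Tnmd in the table lies before the RefSeq start, so that the end of its window belongs to the gene in the table.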

How the data were processed

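RNA-seq of 7 sorted populations and of input bone marrow cells was analysed, 1 library each. The values deposited are raw counts of reads on each Ensembl gene, with exon positions and lengths. According to the Methods, mRNA was selected by polyA, sequenced as paired ends, trimmed and aligned by TopHat2 to mm9, whereas the deposited coordinates are those of GRCm38 (96.2% of 23335 symbols lie within 10 kb of the RefSeq start). Partek 2.2 is named in the submitters' processing notes. The labels describe crushed marrow for the RNA, the Methods sorted cells. The counting tool, its treatment of shared reads and strandedness are not given in the sources used here. Reads of overlapping genes may therefore be split or dropped.

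RPKM was computed from each count, the exon length and the sum of counts of the library. Symbols were available for 32464 of the 49315 genes. Shares were taken over the 12360 genes whose highest sorted library passed RPKM 2, with folds above 2 of RPKM + 1 after the thresholds of the study. The exact binomial intervals (95%) compare libraries and not populations, and reads without molecular identifiers are not independent molecules. No test between populations was made, since there is 1 library of each. The genes named are the 10 genes, the genes of the lists, the 2 genes with the highest r to each (at least 50 counts) and the genes overlapping them. The members and the lists were chosen with earlier results of these data known, and the rules on clusters 2 and 6 and on the input after seeing the values. Alternatives were TMM and DESeq2 size factors, totals without the 3 loci named in the report or without mitochondrial and haemoglobin genes, a pseudocount of 0.1, no RPKM filter or one of 5, and omission of cluster 5. The calculations were tested on simulated data. Upstream windows of 250 bases were taken from RefSeq (GRCm38.p6) for 5 of the 10 genes. Windows on chromosome 18, where Mkx lies, were left out. The total count was 12833648 to 33238133 per sorted library. Scaling factors came from edgeR 4.0.16 and DESeq2 1.42.0 in R 4.3.3, and the rest was done in Python 3.11.15 with scipy 1.17.1, pandas 2.3.3, numpy 2.4.6 and matplotlib 3.10.9.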

Additional observations from a re-analysis of the deposited data

How the results depend on the processing

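No paired analysis was possible because there is a single library for every population. Of 192 values computed again under the alternatives, 160 were classed as staying within their counting interval or count range, 24 as moved and 8 as turned. The count range was wide. The number of the 10 genes that kept their highest library was classed as staying, although it was 7 by TMM and DESeq2 size factors. It was 8 with totals without Rn18s-rs5, mmu-mir-689-2 and Lars2. On the log2 scale, the highest over the next library turned for Chad (cluster 4 over cluster 6, -0.291 by TMM and -0.295 by DESeq2 size factors), Hapln1 (cluster 2 over cluster 6, -0.090 and -0.065) and Tnmd (cluster 1 over cluster 4, -0.036 and -0.064), and, with totals without Rn18s-rs5, mmu-mir-689-2 and Lars2, for Sox9 (-0.099) and Matn3 (-0.008), both cluster 6 over cluster 2. Genes among the 10 with the input more than 2-fold above the median sorted library went to 0 by TMM and DESeq2 size factors, and those with the median more than 2-fold above the input to 3 by both and to 4 without cluster 5. The shares of all genes for these input counts were not computed under these settings. Of the endothelial list, 1 gene passed the 2-fold range with RPKM above 5 and 2 without cluster 5, and of the Schwann list 2 with totals without the 3 loci and 2 with no RPKM filter. These shifts follow from the scaling itself, from fewer libraries or from the genes admitted. Depth was lowest in cluster 5, where the smallest count of the 10 genes was 221 (Mkx), and no call rests on replicates.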
